A study of Mus musculus with 8 samples.

Results

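The 9 genes described here encode the core enzymes and carriers of mitochondrial fatty acid beta-oxidation. They are Cpt1a, Cpt2 and Slc25a20 of the carnitine shuttle, the acyl-CoA dehydrogenases Acadvl, Acadl and Acadm, the trifunctional protein subunits Hadha and Hadhb, and the auxiliary reductase Decr1. They were chosen by gene symbol, and each of the 9 symbols matched a row of the 41730 gene rows in the count table. RNA sequencing was performed on mouse CD8+ OT-I T cells, whose transgenic receptor recognises the ovalbumin peptide SIINFEKL. The T cells had been cultured with SIINFEKL-pulsed bone marrow-derived dendritic cells (BMDCs) from LXR-/- animals, which lack the liver X receptors, and were then purified by fluorescence-activated sorting. In the RGX-104 group (n = 4 libraries) the culture received 2 µM RGX-104, a synthetic LXR agonist, and in the control group (n = 4 libraries) it received DMSO. Both groups thus shared LXR-/- dendritic cells and peptide, and the labels give the T cells' genotype as OT-I, with no age, culture time or LXR allele of the T cells. The labels do not say whether the 4 libraries of a group came from separate animals or cultures, so p-values measure the spread between these libraries, which may be technical.

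Beta-oxidation shortens fatty acids in mitochondria and feeds acetyl-CoA and reduced electron carriers to the rest of energy metabolism. Long-chain acyl groups enter only after CPT1 has attached them to carnitine at the outer membrane, SLC25A20 has exchanged the acylcarnitine across the inner membrane and CPT2 has re-formed the acyl-CoA. CPT1 is inhibited by malonyl-CoA, the building block of fatty acid synthesis. In CD8+ T cells, effector cells are known for high glycolysis and fatty acid synthesis, and memory cells for a greater use of fatty acid oxidation. LXR is a sterol-sensing nuclear receptor that binds DNA with a retinoid X receptor (RXR) partner and is known for driving cholesterol export and fatty acid synthesis genes, while PPAR receptors, which also pair with RXR, are the known drivers of beta-oxidation genes.

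The agonist was first checked on Abca1, the cholesterol exporter that is a textbook LXR target. Abca1 averaged 125 ± 6.21 CPM (counts scaled to a common library size by the TMM method) in RGX-104 libraries and 1.72 ± 0.295 CPM in control libraries (SD, n = 4 each), a log2 fold change of 6.19. Library totals ranged from 30642316 to 37714355 counts and averaged 32496300 ± 1956600 in RGX-104 libraries and 35694000 ± 1668470 in control libraries (two-sided exact permutation p = 0.0857, where the smallest possible is 0.0286). The CD8 T cell markers were abundant, with a summed level of 3382 to 3433 CPM in RGX-104 libraries and 3437 to 3543 CPM in control libraries. Of their 9 tested genes, Lck rose with RGX-104, Cd8a, Cd8b1 and Cd3e fell, and 5 were not called. Over all tested genes 8.95% were called, which is the value to set beside the calls of this and the other marker lists, not their own share. Cd2, listed at 0 to 6 counts, was not tested. Lck and Cd2 each also had a second row under the same symbol, and the count of Cd2 is not read as its level. The 8 myeloid markers summed to 0.773 to 1.07 CPM in RGX-104 libraries and to 0.620 to 0.828 CPM in control libraries, and none had enough counts to be tested. The 13 dendritic cell markers summed to 757 to 775 CPM in RGX-104 libraries and to 770 to 821 CPM in control libraries, most of it Ccr7, which T cells also express. Of these, H2-Aa, H2-Ab1 and H2-Eb1 were listed at 0 in every library, though each also had a second row under the same symbol, and Clec9a had at most 1 count. Cd74 and Ccl22 rose and Ccr7 fell among the 8 tested, of which 7 had positive log2 fold changes, with a median of 0.29. Among B cell markers 0 of the 1 tested gene was called, and among CD4 T cell markers Cd40lg rose and Zbtb7b fell of 2 tested, with Cd4 itself at 3 to 14 counts. In sorted bulk RNA a smaller share of cells of a type and less RNA per cell cannot be told apart, and the part of these markers in the results below was not tested.

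None of the beta-oxidation members passed the test for a change with RGX-104. Of the 9 genes, 8 had enough counts to be tested, and edgeR's quasi-likelihood test called 0 of them higher and 0 lower at an adjusted p under 0.05, as did DESeq2 and limma-voom. Over all 13290 tested genes the same edgeR rule called 8.95%, with 640 genes higher and 549 lower. At an unadjusted p under 0.05 the test passed 2 members, Cpt1a and Slc25a20, against 22.2% of all tested genes. The median log2 fold change was -0.018 over the 8 tested members, with 3 positive and 5 negative values, and 0.00072 over all tested genes. The summed level of the 9 genes lay between 425 and 439 CPM in RGX-104 libraries and between 431 and 451 CPM in control libraries, so the groups overlapped.

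**Figure D1:**
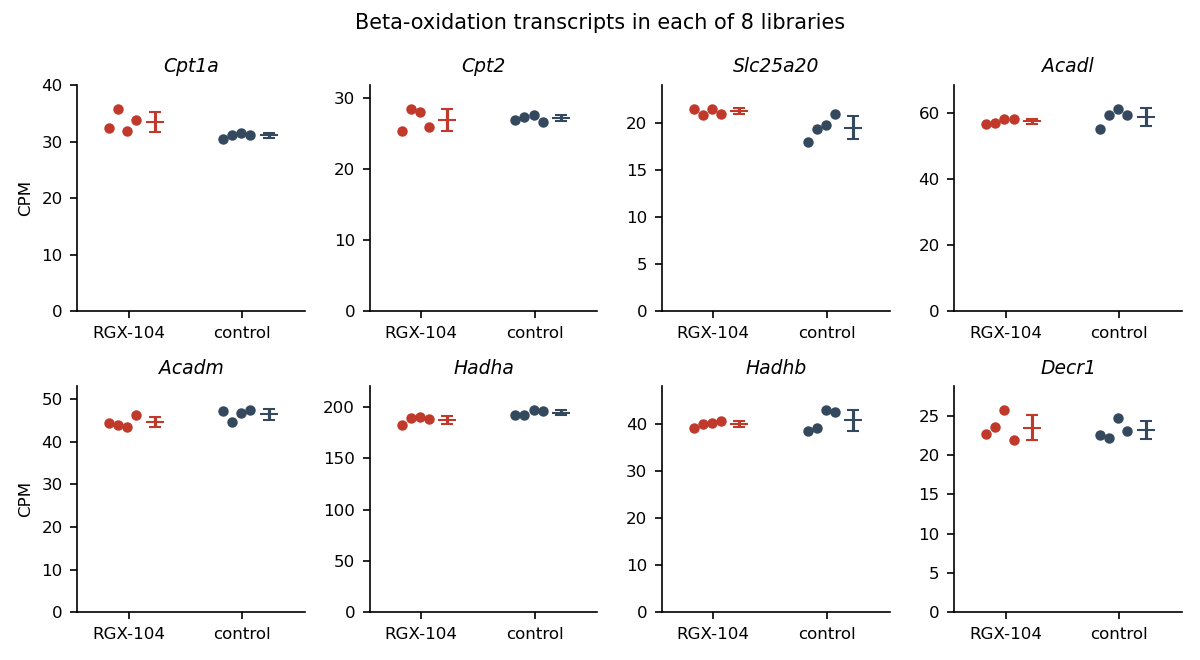
Level of each tested beta-oxidation gene in CPM (vertical axes from 0) in the 4 RGX-104 libraries (red) and the 4 control libraries (dark blue); each point is a library, and the horizontal mark with its bar is the group mean and SD. The points of the groups lie at similar heights in every panel. Only Cpt1a and Hadha of the 8 show no overlap between the groups, against 14.5% of all tested genes, and neither passed the test.

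Of the 3 carnitine shuttle genes, Cpt1a and Slc25a20 had the highest fold changes of the 8 tested members, and neither passed the test. Cpt1a (GRCm38 chr19:3322326-3385735, + strand) encodes the outer-membrane acyltransferase that commits long-chain fatty acids to oxidation. It measured 32.4, 35.8, 31.96 and 33.8 CPM in RGX-104 libraries, against 30.6, 31.3, 31.6 and 31.2 CPM in control libraries. The lowest RGX-104 library lay just above the highest control library, so the groups did not overlap. The log2 fold change was 0.11 (SE 0.042, 95% interval 0.020 to 0.19), a difference of 7.63%, and it did not pass the test (edgeR adjusted p = 0.12). Over 18 alternative settings it lay between 0.071 and 0.13, with adjusted p-values of 0.0807 to 1. The top value came from the test against a fold of 1.2, and the next highest was 0.396 (edgeR, without RGX-104 replicate 2). Non-overlap in either direction was found in 2 of the 8 tested members, against 14.5% of all tested genes, and in the higher direction in 1 member, against 7.07% of all tested genes.

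Slc25a20 (chr9:108662136-108684642, + strand) encodes the carnitine-acylcarnitine carrier of the inner membrane. It measured 21.5, 20.9, 21.5 and 21.0 CPM in RGX-104 libraries, against 17.95, 19.3, 19.7 and 20.9 CPM in control libraries. The RGX-104 libraries were tightly grouped, while control replicate 1 was low and control replicate 4 reached into the RGX-104 range. The log2 fold change of 0.12 (SE 0.049, 95% interval 0.019 to 0.22) was the highest of the 8 members and did not pass the test (edgeR adjusted p = 0.137). With 1 surrogate variable in the model it became 0.18 with an edgeR adjusted p of 0.0439, the one setting in which any member was called. Without control replicate 4 it was 0.16 with an edgeR adjusted p of 0.0547, and over all 18 alternatives the adjusted p ran from 0.0439 to 1.

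Cpt2 (chr4:107903982-107923589, - strand) encodes the inner-membrane acyltransferase that releases acyl-CoA inside the mitochondrion. It measured 25.3, 28.5, 28.1 and 25.9 CPM in RGX-104 libraries, against 26.9, 27.2, 27.6 and 26.7 CPM in control libraries. RGX-104 libraries lay on both sides of the narrow control range. Its log2 fold change was -0.0078 (SE 0.044, edgeR adjusted p = 0.939), with a 95% interval that spans a difference of -6.63% to 5.95%.

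The promoter windows of the 2 shuttle genes with the highest fold changes are shown because both PPAR-RXR and LXR-RXR pairs read repeats of the hexamer AGGTCA. Each window runs 5′ to 3′ on the gene's own strand, 250 bases before to 50 after a RefSeq start (GRCm38.p6), at chr19:3323051-3323350 for Cpt1a and chr9:108661886-108662185 for Slc25a20, and capitals mark exact AGGTCA hexamers and pairs of it spaced by 1 base.
Cpt1a: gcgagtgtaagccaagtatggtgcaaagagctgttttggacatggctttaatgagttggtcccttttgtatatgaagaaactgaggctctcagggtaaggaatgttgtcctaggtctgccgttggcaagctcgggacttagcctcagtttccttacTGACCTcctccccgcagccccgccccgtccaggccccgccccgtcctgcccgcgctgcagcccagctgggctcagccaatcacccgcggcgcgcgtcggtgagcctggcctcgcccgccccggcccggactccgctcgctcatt
Slc25a20: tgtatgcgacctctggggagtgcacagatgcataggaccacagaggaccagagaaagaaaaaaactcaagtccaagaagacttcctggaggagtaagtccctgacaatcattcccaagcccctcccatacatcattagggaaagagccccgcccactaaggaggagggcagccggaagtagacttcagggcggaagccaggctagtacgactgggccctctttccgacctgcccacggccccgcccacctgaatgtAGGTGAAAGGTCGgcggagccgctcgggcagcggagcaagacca
The Cpt1a window held 1 exact AGGTCA, on the opposite strand (TGACCT) with its first base at -94. That window lies wholly inside the Cpt1a coordinates given above, so its start is downstream of the gene's first base. The Slc25a20 window held a pair spaced by 1 base with 2 mismatches, AGGTGAAAGGTCG, with its first base at 7, counting the start as 1. Both strands were searched in the windows of the 8 members that matched the RefSeq table, and in all 32841 windows of 27018 genes. An exact AGGTCA was found in 3 of the 8 member windows (Cpt1a, Acadvl and Acadm) and in 16.3% of all windows. A pair spaced by 1, with up to 2 mismatches, was found in 1 of 8 and in 3.86% of all windows. A pair spaced by 4, the LXR-RXR spacing, was found under the same rule in 1 of 8, Acadvl, where it overlaps the exact AGGTCA, and in 3.02% of all windows. The element TNAAGGTCA of the oestrogen-related receptors was in 0 of 8 and in 1.28% of all windows. The letters GGGCGG of the GC box were in 6 of 8 member windows against 35.7% of all windows, CCAAT in 1 (Cpt1a) against 37.4%, and TATAAA in 0 against 13.6%. The Hadha and Hadhb windows overlap, and the GGGCGG match of Hadha at -188 is the same site as that of Hadhb at -90. The member windows had 50.7% to 70.3% G+C and 9 to 34 CpG dinucleotides, against medians of 52.7% and 7 over all windows. These matches are letters in a window and show nothing of binding.

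The acyl-CoA dehydrogenases carry out the first step of each cycle and differ in chain length preference. Acadl (chr1:66830839-66863309, - strand), the long-chain enzyme, measured 56.7, 56.8, 58.1 and 58.0 CPM in RGX-104 libraries, against 54.9, 59.3, 61.2 and 59.2 CPM in control libraries. The RGX-104 values all fell within the wider control range. The log2 fold change was -0.031 (SE 0.036, edgeR adjusted p = 0.655). Acadm (chr3:153922353-153944643, - strand), the medium-chain enzyme, measured 44.5, 44.0, 43.5 and 46.2 CPM in RGX-104 libraries, against 47.2, 44.5, 46.7 and 47.4 CPM in control libraries. Control replicates 1, 3 and 4 lay above every RGX-104 library, and control replicate 2 did not. Its log2 fold change was -0.061 (SE 0.036, edgeR adjusted p = 0.338), the lowest of the 8 members.

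Acadvl (chr11:70010183-70015428, - strand), the very-long-chain enzyme, overlaps Dvl2 and Mir324 and could not be measured. It had 3, 4, 0 and 3 counts in RGX-104 libraries, against 0, 2, 6 and 1 counts in control libraries, and did not pass the filter on low counts. The table holds a second row under the same symbol, which was 0 in all 8 libraries. All 14 protein-coding genes within 100 kb of Acadvl that the table lists also have a second row, and none of them exceeded 41 counts in any library. These neighbours include Eif5a, a translation factor gene that is highly expressed in most cells, at 10 to 22 counts. The counts of Acadvl are therefore given without reading them as its level. Acadl also has a second row, which held 0 to 7 counts. The 2 listed protein-coding genes within 100 kb of Acadl have second rows too, with Kansl1l at 45 to 69 counts and Myl1 at 0. Whether this affects the level of Acadl was not tested.

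The trifunctional protein carries out the remaining steps on long chains, with hydratase and dehydrogenase activities in the alpha subunit Hadha and thiolase activity in the beta subunit Hadhb. Hadha (chr5:30119423-30154980, - strand) measured 182.3, 189.9, 190.6 and 188.6 CPM in RGX-104 libraries, against 192.2, 192.3, 197.0 and 196.2 CPM in control libraries. Every RGX-104 library lay below every control library. The log2 fold change was -0.049 (SE 0.027, 95% interval -0.11 to 0.0066), a difference of -3.37%, and did not pass the test (edgeR adjusted p = 0.294). Non-overlap in the lower direction was found in this 1 member, against 7.45% of all tested genes. Hadhb (chr5:30155253-30184593, + strand) measured 39.1, 40.0, 40.1 and 40.6 CPM in RGX-104 libraries, against 38.5, 39.2, 42.8 and 42.4 CPM in control libraries. Control replicate 1 lay below every RGX-104 value, control replicate 2 lay among them, and control replicates 3 and 4 lay above. Its log2 fold change was -0.028 (SE 0.040, edgeR adjusted p = 0.737). Hadha overlaps Garem2 on the opposite strand, which had 70 counts over all 8 libraries, and the strand setting of the counting is not given in the sources used here.

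Hadha and Hadhb lie head to head, with 272 bases between their starts, so their promoter windows share 228 bases. The Hadhb window (chr5:30155003-30155302, + strand, RefSeq, GRCm38.p6) is shown for that shared stretch, which is in capitals.
Hadhb: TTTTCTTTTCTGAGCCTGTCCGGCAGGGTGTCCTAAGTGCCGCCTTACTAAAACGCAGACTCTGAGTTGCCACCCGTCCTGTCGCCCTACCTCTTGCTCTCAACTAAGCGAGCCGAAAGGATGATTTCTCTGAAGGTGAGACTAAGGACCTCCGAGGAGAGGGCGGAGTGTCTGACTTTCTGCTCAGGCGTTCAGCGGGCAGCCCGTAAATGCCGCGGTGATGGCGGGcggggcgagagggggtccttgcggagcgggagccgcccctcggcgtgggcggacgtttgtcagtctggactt
The counts of the transcripts were set against each other within each library, without scaling to length. The ratio of Hadha to Hadhb counts was 4.70 ± 0.0581 in RGX-104 libraries (4.64 to 4.75) and 4.78 ± 0.201 in control libraries (4.60 to 5.00; SD, n = 4 each). The RGX-104 range lay inside the control range.

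Decr1 (chr4:15917240-15945377, - strand) encodes the 2,4-dienoyl-CoA reductase needed for fatty acids with certain double bonds. It measured 22.7, 23.5, 25.7 and 21.9 CPM in RGX-104 libraries, against 22.5, 22.1, 24.7 and 23.1 CPM in control libraries. Each group had 1 library near 25 CPM, and the ranges overlapped almost fully. The log2 fold change was 0.021 (SE 0.051, edgeR adjusted p = 0.854).

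The 95% intervals of all 8 tested members lay between a difference of -9.02%, the lower bound of Acadm, and 16.7%, the upper bound of Slc25a20. Tested against a fold of 1.2, 0 members were called and 0 had an unadjusted p under 0.05. That test called few genes of any kind, 65 higher and 45 lower of all 13290 tested. Replicates varied little. The coefficient of variation of the 8 members ranged from 1.27% (Acadl) to 6.88% (Decr1) in RGX-104 libraries and from 1.30% (Hadha) to 6.33% (Slc25a20) in control libraries.

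**Figure D2:**
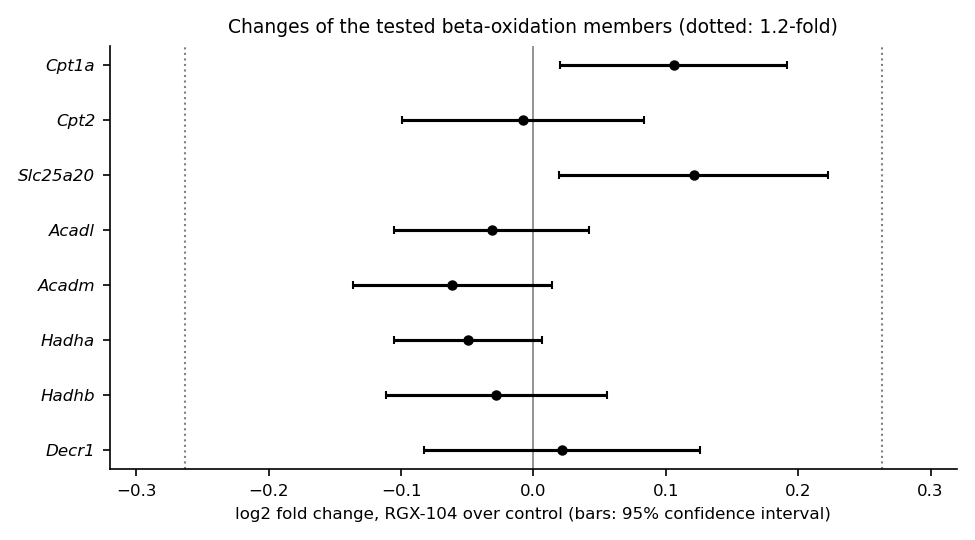
Log2 fold change of each tested member, RGX-104 over control (horizontal axis), with its 95% confidence interval from the edgeR fit; dotted lines mark a fold of 1.2 in either direction. All 8 intervals lie between the dotted lines, and those of Cpt1a (0.020 to 0.19) and Slc25a20 (0.019 to 0.22) lie above 0. Neither gene passed the test after adjustment, and the interval excluded 0 for 22.2% of all tested genes.

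Levels were compared between members per kb of the longest protein-coding transcript. Hadha stood highest at a mean of 47.6 CPM per kb over the 8 libraries, followed by Acadl at 30.3, Acadm at 22.2 and Hadhb at 19.7 CPM per kb. The range over libraries of each of these did not overlap that of the next. Slc25a20 and Cpt2 came next, both at 11.4 CPM per kb and with overlapping ranges, and Decr1 at 7.87 and Cpt1a at 7.49 CPM per kb also overlapped. The order depended on the length used. Scaled by the mean length of all annotated transcripts instead, Hadha remained highest at 121 CPM per kb, but Acadm at 57.3 CPM per kb passed Acadl at 45.3 CPM per kb, and Slc25a20 at 11.4 CPM per kb was lowest. By the longest transcript of any type Slc25a20 was again lowest, at 7.40 CPM per kb, and Hadhb at 9.19 CPM per kb lay below Cpt2.

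**Figure D3:**
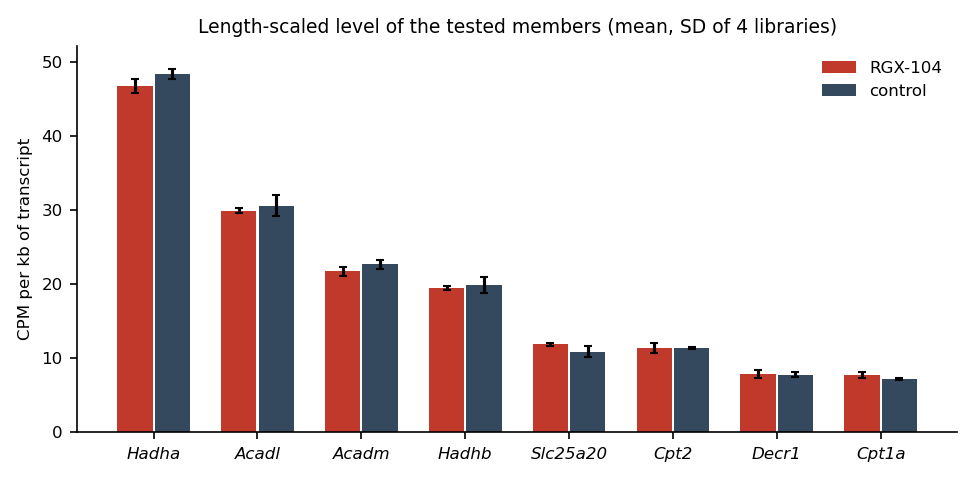
Level per kb of the longest protein-coding transcript (vertical axis, CPM per kb) of the 8 tested members, ordered by the mean over all libraries; bars are means of the 4 RGX-104 (red) and 4 control (dark blue) libraries, and error bars are SDs. The order from Hadha at 47.6 CPM per kb to Cpt1a at 7.49 CPM per kb spans far more than any difference between the groups.

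The other CPT1 genes were scarce. Cpt1c, the brain-enriched form that has little activity in fatty acid oxidation, rose to 55, 61, 47 and 45 counts in RGX-104 libraries, against 38, 39, 44 and 33 counts in control libraries. The groups did not overlap (log2 fold change 0.56, SE 0.16, edgeR adjusted p = 0.0327). The call was lost with DESeq2 (adjusted p = 0.0924), with limma-voom (adjusted p = 0.0591), with 1 surrogate variable (log2 fold change 0.43, edgeR adjusted p = 0.202) and without RGX-104 replicate 1, RGX-104 replicate 2 or control replicate 4 (edgeR adjusted p = 0.105, 0.104 and 0.107). Cpt1b, the muscle form, had 7 to 13 counts and was not tested. Cpt1a made up 94.59% ± 0.389 of the counts of the 3 CPT1 genes in RGX-104 libraries (94.08% to 94.91%) and 95.83% ± 0.563 in control libraries (95.32% to 96.58%; SD, n = 4 each). These shares did not overlap between the groups, and their difference was not tested.

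In the list of other carnitine and mitochondrial beta-oxidation genes, 1 was called, and it was Cpt1c, which has little activity in the pathway. Of 22 listed genes 21 were tested, with 1 higher (Cpt1c), 0 lower and a median log2 fold change of -0.014. Over all tested genes 8.95% were called. The genes that carry the short-chain steps and the electron transfer were abundant and not called. Acat1, which encodes a thiolase for the last, short-chain step, averaged 98.8 ± 2.06 CPM in RGX-104 libraries and 102 ± 2.11 CPM in control libraries (SD, n = 4 each; edgeR adjusted p = 0.408). Etfa, a subunit of the flavoprotein that takes electrons from the dehydrogenases, averaged 101 ± 2.80 CPM in RGX-104 libraries and 101 ± 3.13 CPM in control libraries (edgeR adjusted p = 0.974). Hadh, Echs1, Acaa2 and Acads, which act on shorter chains, had log2 fold changes of -0.033, -0.019, 0.017 and 0.037 and edgeR adjusted p-values of 0.598, 0.809, 0.818 and 0.595.

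In the peroxisomal pathway 1 gene was called of 15 tested and 19 listed, with 0 called lower and a median log2 fold change of -0.0088. The share called over all tested genes was 8.95%. Acox3, an acyl-CoA oxidase gene that acts on branched-chain substrates, rose to 29.7, 31.0, 28.6 and 30.2 CPM in RGX-104 libraries, against 28.4, 27.7, 25.4 and 25.01 CPM in control libraries. The groups did not overlap (log2 fold change 0.17, SE 0.046, edgeR adjusted p = 0.019). The call was lost with 1 surrogate variable (edgeR adjusted p = 0.195) and without RGX-104 replicate 2, control replicate 3 or control replicate 4 (0.076, 0.0834 and 0.0713). Ech1, an isomerase, and Abcd3, a transporter of the peroxisomal membrane, were the most abundant not called, at log2 fold changes of -0.083 and -0.065 (edgeR adjusted p = 0.193 and 0.263).

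Of the genes that set malonyl-CoA, the inhibitor of CPT1, 1 of 10 was called, against 8.95% of all tested genes. Acaca, the acetyl-CoA carboxylase that makes malonyl-CoA in the cytosol, rose to 154, 161, 169 and 160 CPM in RGX-104 libraries, against 142, 149, 134 and 133 CPM in control libraries. The lowest RGX-104 library lay above the highest control library (log2 fold change 0.21, SE 0.036, edgeR adjusted p = 4.29e-04). Acacb, the form associated with the outer mitochondrial membrane, averaged 1.24 ± 0.212 CPM in RGX-104 libraries and 1.22 ± 0.292 CPM in control libraries (SD, n = 4 each; edgeR adjusted p = 0.961). Mlycd, which encodes the decarboxylase that removes malonyl-CoA, averaged 11.4 ± 0.451 CPM in RGX-104 libraries and 11.5 ± 0.654 CPM in control libraries (edgeR adjusted p = 0.967). The AMPK subunit gene Prkag1 and the AMPK kinase gene Stk11 were not called, at log2 fold changes of -0.029 and 0.019 (edgeR adjusted p = 0.672 and 0.793). The median over the 10 genes was 0.020.

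Among nuclear receptors and coregulators that govern beta-oxidation genes, 7 of 15 were tested, 1 was called higher and 0 lower, with a median of -0.011. The share called over all tested genes was 8.95%. Rxra, the RXR partner of PPAR and LXR, rose to 19.97, 20.4, 20.8 and 20.4 CPM in RGX-104 libraries, against 11.8, 10.8, 11.4 and 12.2 CPM in control libraries (log2 fold change 0.82, SE 0.053, edgeR adjusted p = 1.46e-11). Ppara, Pparg and Ppargc1a, the gene of PGC-1 alpha, had too few counts to be tested. Ppara had 0 to 3 counts per library, Pparg 6 to 10 and Ppargc1a 0 to 2. Ppard and Rxrb were each listed at 0 or 1 count per library. Each has a second row under its symbol, so these counts are not read as levels. Esrra, the oestrogen-related receptor that drives mitochondrial genes, averaged 32.8 ± 2.15 CPM in RGX-104 libraries and 32.02 ± 1.38 CPM in control libraries (SD, n = 4 each; edgeR adjusted p = 0.711). The corepressor gene Ncor1 and the deacetylase gene Sirt1 were not called (log2 fold changes -0.011 and -0.097, edgeR adjusted p = 0.924 and 0.23).

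Few PPAR targets outside the pathway could be tested. Of 18 listed, 13 had too few counts to test, including Pdk4, the kinase that restrains glucose oxidation, with 3 counts over all libraries. Angptl4 and Fabp3 were listed at 0 in every library. Each has a second row under its symbol, and these counts are not read as levels. Plin2, a lipid droplet coat gene, fell to 11.4, 11.5, 10.8 and 10.4 CPM in RGX-104 libraries, against 13.2, 12.9, 12.6 and 13.3 CPM in control libraries (log2 fold change -0.24, SE 0.059, edgeR adjusted p = 0.00928). The groups did not overlap, and it was the 1 gene called of 5 tested (median -0.023), against 8.95% of all tested genes. Txnip, an inhibitor of glucose uptake, measured 54.8, 65.4, 69.9 and 66.7 CPM in RGX-104 libraries, against 73.0, 83.9, 95.8 and 89.2 CPM in control libraries. It did not pass edgeR's test (log2 fold change -0.41, adjusted p = 0.0712), but did with DESeq2 (adjusted p = 0.00364) and without control replicate 1 (edgeR adjusted p = 0.018). Ucp2, an inner-membrane carrier, was the most abundant of the 5 and was not called (log2 fold change -0.023, edgeR adjusted p = 0.669).

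Upstream of the carnitine shuttle, genes for fatty acid release, uptake and activation were examined. Of 18 genes 16 were tested, with 5 higher, 2 lower and a median of 0.067, against 8.95% called and a median of 0.00072 over all tested genes. This list was chosen with earlier results known, and it was not tested against other genes. Acsl3, which encodes an acyl-CoA synthetase tied to lipid droplets, rose to 70.8, 75.9, 70.3 and 74.3 CPM in RGX-104 libraries, against 43.8, 45.5, 48.0 and 46.5 CPM in control libraries (log2 fold change 0.66, SE 0.037, edgeR adjusted p = 5.90e-13). Acsl6, another synthetase, averaged 34.8 ± 1.57 CPM in RGX-104 libraries and 29.4 ± 0.960 CPM in control libraries (SD, n = 4 each; log2 fold change 0.24, edgeR adjusted p = 2.69e-04). Dbi, the acyl-CoA-binding protein gene, averaged 97.9 ± 1.28 CPM in RGX-104 libraries and 88.1 ± 1.18 CPM in control libraries (log2 fold change 0.15, edgeR adjusted p = 8.58e-04). None of these 3 pairs of groups overlapped. In the list 6 of the 16 tested genes showed no overlap, against 14.5% of all tested genes. The table holds a second row for Acsl3, which was not added to it.

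Cd36, a fatty acid uptake receptor, measured 2.04, 1.64, 1.58 and 2.61 CPM in RGX-104 libraries, against 1.38, 0.973, 1.02 and 1.73 CPM in control libraries. The groups overlapped and the call was marginal (log2 fold change 0.61, SE 0.19, edgeR adjusted p = 0.0486). It was lost with DESeq2 (adjusted p = 0.059), with scaling by library totals (edgeR adjusted p = 0.0524) and without RGX-104 replicate 1, RGX-104 replicate 4 or any of control replicates 1, 2 and 3 (edgeR adjusted p = 0.118, 0.176, 0.0666, 0.125 and 0.154). The remaining 3 calls, named after their values were seen, were Acsl4, a synthetase that favours polyunsaturated acids and rose (log2 fold change 0.13), Acsl5, a synthetase of the mitochondrial outer membrane that fell (-0.10), and Pnpla2, the triglyceride lipase that fell (-0.12). The edgeR adjusted p-values were 0.00231 for Acsl4, 0.0125 for Acsl5 and 0.0152 for Pnpla2. Fabp5, a fatty acid-binding protein gene, and Lipa, the lysosomal acid lipase gene, were not called (log2 fold changes 0.011 and 0.063).

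**Figure D4:**
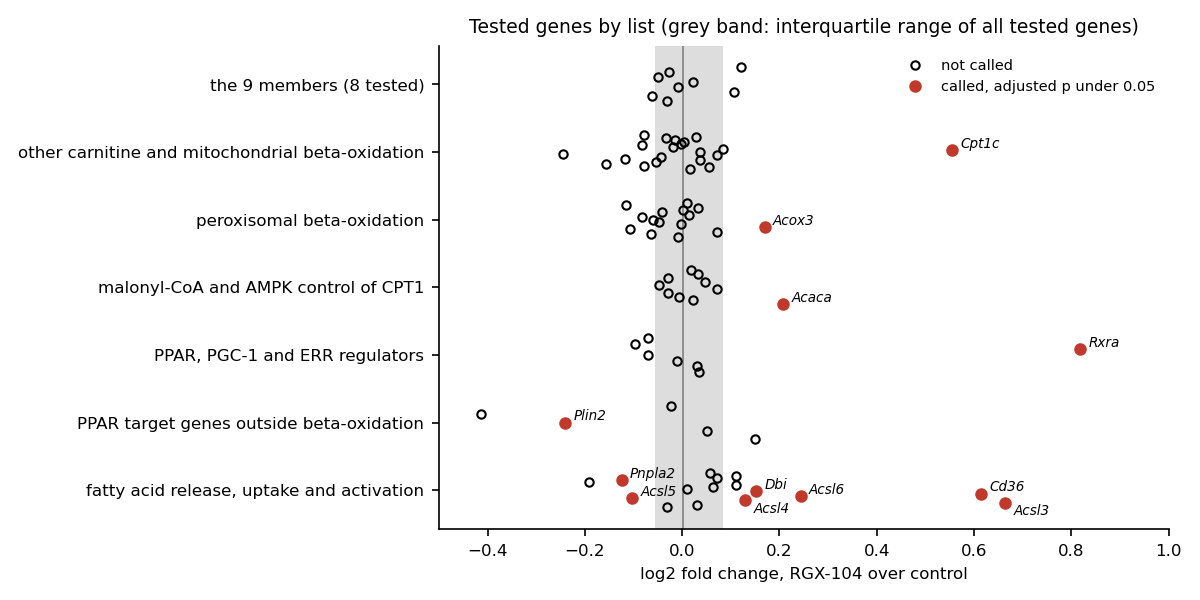
Log2 fold change, RGX-104 over control (horizontal axis), of each tested gene by list; filled red points passed edgeR's test at an adjusted p under 0.05, open points did not, and the grey band is the interquartile range of all tested genes. The 8 tested members are all open and lie between -0.061 and 0.12, against 8.95% of all tested genes called, and the bottom list has 7 filled points of 16; no list was tested against the rest.

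The genes most like Cpt1a in pattern were found by the root mean square difference of centred log2 CPM over the 8 libraries, among 7411 tested genes of sufficient level. They were Anxa4 (0.0259), Zfp143 (0.0286) and Sertad1 (0.0307). Nearest to the mean profile of the 8 tested members were Serinc3 (0.0133), Ndufa13 (0.014) and Tmem14c (0.0148), none of which was called. Their log2 fold changes were 0.0020 for Serinc3, -0.0059 for Ndufa13 and 0.0073 for Tmem14c.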

How the data were processed

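Libraries were made with Illumina's TruSeq chemistry from sorted cells' RNA, per the labels. The authors deposited whole-number read counts per gene and library, not normalized. Build GRCm38 and the tools STAR 2.7.5, cutadapt 2.10, DESeq2 1.4 and R 4.1.0 come from the submitters' processing notes. Which program counted reads, on which annotation and with which strand setting, is not given in the sources used here. RGX-104 columns show the group and not which sample each was, so these replicates are numbered by column. Replicates differed beyond sampling noise (chi-square per degree of freedom 1.34 to 6.32 within groups).

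Counts were filtered with edgeR 4.0.16 (minimum count 10, minimum total 15), scaled by TMM and fitted with the robust quasi-likelihood test over all 8 libraries, with a term for treatment alone and Benjamini-Hochberg adjustment over 13290 genes at 0.05 (R 4.3.3). The procedure was tested on simulated data. Alternatives used DESeq2 1.42.0, limma 3.58.1 (voom with sample weights), sva 3.50.0, other scalings, filters and thresholds, and each library left out. Transcript lengths came from GENCODE M21 and promoter windows and positions from RefSeq GRCm38.p6; 8 of 9 members matched a window. The members and lists were chosen with earlier results of these data known. Some listed genes are not reported here and stand in no list count. Genes named were the members, a set of pathway genes, of each list up to 4 called genes of largest change and the 2 most abundant not called, and the 3 genes nearest in pattern to Cpt1a and to the members' mean (mean log2 CPM of at least 4).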

Additional observations from a re-analysis of the deposited data

Results flagged for a closer look

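In groups of 4 libraries, a library was picked out where its gap to the nearest other over the group's range exceeded Dixon's 95% critical value. This held for 4 of 90 groups checked over 45 genes, where chance gives about 4.5, and no member was among them. Hadh measured 61.99 CPM in control replicate 4, against 59.48 to 59.82 CPM in the other control libraries. Abcd3 measured 68.70 CPM in control replicate 4, against 64.78 to 65.12 CPM in the others. Stk11 measured 145.99 CPM in control replicate 1, against 130.45 to 133.04 CPM in the others. Dbi measured 96.03 CPM in RGX-104 replicate 2, against 98.32 to 98.69 CPM in the other RGX-104 libraries.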

How the results depend on the processing

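The number of members called stayed at 0 under every alternative run except 1 surrogate variable, which called 1 (Slc25a20). Over all genes, 425 higher and 365 lower were called with 1 surrogate variable, 344 and 280 at an adjusted p under 0.01, and 65 and 45 against a fold of 1.2. Leaving out 1 library gave 462 to 719 higher and 377 to 621 lower. The other mitochondrial list had 0 calls with DESeq2, limma-voom, 1 surrogate variable, adjusted p under 0.01 and a fold of 1.2, and 0 to 1 with a library left out. The peroxisomal list had 0 with 1 surrogate variable, at adjusted p under 0.01 and against a fold of 1.2, and 0 to 1 with a library left out. Against a fold of 1.2 the malonyl-CoA list and the PPAR targets had 0, and the release and activation list had 1. The PPAR targets had 2 with DESeq2 and 1 to 2 with a library left out, and the release list had 4 at adjusted p under 0.01.

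Signs turned only for genes that were not called and whose log2 value in the main fit was near 0. Among them Acacb moved furthest, with an SE of 0.19 in the main fit. Cpt2 was 0.0042 with upper-quartile scaling, 0.0030 with library totals, and -0.036 to 0.021 with a library left out. With 1 surrogate variable Acadl was 0.0032, Hadhb 0.028, Mlycd 0.023, Etfa 0.015, Stk11 -0.014 and Ndufa13 0.0088. With limma-voom Acacb was -0.013, Mlycd 0.0039, Ncor1 0.0071 and Serinc3 -0.00039. With upper-quartile scaling Mlycd was 0.0058, Etfa 0.0093, Ncor1 0.00068 and Ndufa13 0.0060, and with library totals Mlycd was 0.0048, Etfa 0.0085 and Ndufa13 0.0050. Without the filter Serinc3 was -0.0045. With a library left out, Decr1 was -0.025 to 0.055, Acacb -0.10 to 0.18, Etfa -0.020 to 0.011, Fabp5 -0.013 to 0.037, Mlycd -0.039 to 0.024, Ncor1 -0.042 to 0.043, Ndufa13 -0.015 to 0.0051, Serinc3 -0.016 to 0.015 and Tmem14c -0.0075 to 0.021. The cause was not tested.

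By mean transcript length, levels per kb were 21.8 for Cpt1a, 27.7 for Cpt2, 45.3 for Acadl, 57.3 for Acadm, 121 for Hadha, 27.2 for Hadhb and 17.4 for Decr1 CPM per kb. By the longest transcript of any type, chosen after seeing the data, they were 7.40 for Slc25a20 and 9.19 for Hadhb. No paired analysis was possible because the labels give no pairing between the groups and the RGX-104 columns cannot be tied to samples. Acadvl, Ppara, Pparg and Ppargc1a had too few counts to pass the filter. The low counts of Acadvl, Ppard, Rxrb, Angptl4, Fabp3 and Cd2 are not read as levels.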
